A study of Bos taurus with 12 samples.

Results

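The 10 genes described here encode receptors linked to reproductive and pituitary hormone signalling, and not all of them bind such a hormone. FSHR, PRLR, GHR and TACR3 are receptors of the cell surface, and ESR2, PGR, NR3C1, ESRRB, ESRRG and NR5A2 are nuclear receptors. They were taken by their Ensembl identifiers from 2 tables in which the authors compared the sperm DNA methylation of bulls with low and with high daughter fertility. A listed locus counted as near a gene when it lay inside the annotated feature of that gene or within 10000 bp of it. By this rule the genes held 13 of 17730 listed CpG sites and 3 of 7290 listed tiles, which are overlapping windows of 500 bp. All 10 genes had at least 1 site, and NR5A2 alone had tiles.

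The study profiled sperm genomic DNA of 12 samples by enzymatic methylation sequencing, a method that marks unmethylated cytosines with enzymes in place of bisulfite. The labels put 6 samples in the group with low daughter fertility and 6 in the group with high daughter fertility. They give no breed, age, treatment or batch, and they do not say that each sample came from a different bull. If some did not, the samples of a group are not independent animals, and their spread may be partly technical. The sources used here do not say whether the p-values account for the spread between samples or rest on read counts alone. The tables hold 1 difference, p and q per locus and no value per sample, so the spread within a group and the read depth behind a value are unknown here. A difference is given in percentage points with the sign as listed, because neither headers nor labels say which group was subtracted. Positions refer to cattle genome build ARS-UCD1.2. Expression of these genes was not measured, and they act mainly in tissues other than sperm.

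As background, the hypothalamus regulates the pituitary, in part through releasing hormones. Neurokinin B, which acts on TACR3, is among the signals that set the pulses of this release in the reproductive axis. The pituitary secretes follicle stimulating hormone, prolactin and growth hormone, whose receptors FSHR, PRLR and GHR sit in the membranes of their target cells. FSHR is coupled to G proteins, as is TACR3, while PRLR and GHR belong to the cytokine receptor family and signal through JAK2 and STAT5. Steroids such as oestrogen, progesterone and glucocorticoids bind ESR2, PGR and NR3C1, which then act on genes directly. ESRRB and ESRRG resemble oestrogen receptors without binding oestrogen, and NR5A2 controls steroid synthesis and ovulation in the ovary. In mature sperm most of the genome is packed with protamines and transcription is largely silent.

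No site in any of the 10 genes reached the thresholds used for a call, which were q below 0.05 with an absolute difference of at least 10 points. Of the 13 sites 0 were called in the authors' deposited table, against 5.94% of all listed sites, and methylKit is among the tools that the labels name. At any size of difference, 0 of the 13 sites had q below 0.05, against 8.11% of all listed sites. Among autosomal sites in introns, the class of 12 of the 13, the shares were lower. There 3.45% were called and 5.27% had q below 0.05. At an unadjusted p below 0.05 there were 4 sites, in PRLR, ESRRG, TACR3 and GHR, against 22.1% of all listed sites. The authors' deposited table gave 2 of these, in PRLR and TACR3, an absolute difference of at least 10 points, a combination met by 10.6% of listed sites. Among autosomal sites in introns 19.9% had an unadjusted p below 0.05. There 6.94% differed by at least 10 points at any p, against 12.1% of all listed sites. Of the 13 sites 9 had a negative difference, 3 a positive one and 1 a difference of 0. That is 75.0% negative of those that were not 0, beside 61.2% of all listed sites and 56.6% of autosomal sites near a gene. Their median difference was -1.55 points, beside -1.01 points over all listed sites, and their range was -21.3 to 17.4 points. With the deposited distance of 10000 bp also required inside a feature, where it is measured to the edge of that feature, 10 sites remained and the median was -3.23 points over 8 genes, without the sites of TACR3 and NR5A2 and 1 of the 2 of NR3C1. With 1 value per gene the median was -2.74 points.

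**Figure D1:**
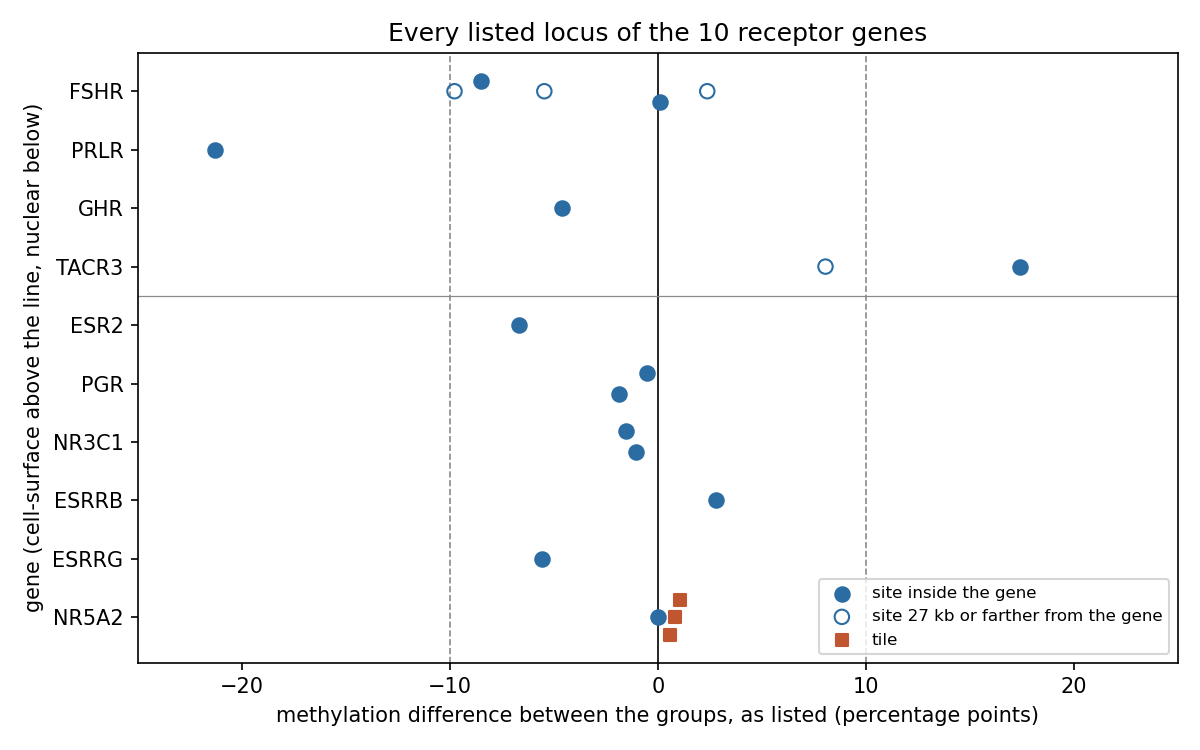
Methylation difference of every listed locus of the 10 genes, in percentage points as listed, with cell-surface receptors above the grey line and nuclear receptors below it. Filled circles are the 13 sites inside a gene, open circles the 4 sites at least 27362 bp away and squares the 3 NR5A2 tiles; the PRLR site at -21.3 and the TACR3 site at 17.4 points lie beyond the dashed lines at 10 points.

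The largest differences belonged to cell-surface receptors. PRLR, the receptor of prolactin, which supports lactation and the corpus luteum of some species, had 1 site (ENSBTAG00000025035, chromosome 20, position 39087721, minus strand). The authors' deposited table lists it at -21.3 points with p = 0.00445 and q = 0.0558, the lowest q of the 13 sites. It lies 4742 bp from the nearer edge of an intron that runs from position 39082979 to 39093141. Only 283 of the 17730 listed sites (1.60%) had a larger absolute difference. Of the 106 other listed sites within 1 point of the same absolute difference, 95 (89.6%) had q below 0.05 in the authors' deposited table.

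The same p did not carry the same q on every chromosome, which bears on the PRLR site. On each of the 24 chromosomes analysed here the authors' q never fell as p grew, while across chromosomes it did. On chromosome 20 the largest p with a q below 0.05 was 0.00334, on chromosome 14 it was 0.00756, on chromosome 21 it was 0.00728 and on the X chromosome it was 0.00963, in the authors' deposited table. On these last 3 chromosomes it lay above the p of the PRLR site. In total 194 listed sites with a larger p than the PRLR site had q below 0.05, and 119 with a smaller p did not. A Benjamini-Hochberg adjustment over all listed sites, chosen after seeing the data, gave the PRLR site an adjusted p of 0.0578.

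TACR3, the receptor of neurokinin B, had the highest difference of the 13 sites. The authors' deposited table lists it at 17.4 points with p = 0.0208 and q = 0.122, at position 21407541 of chromosome 6 (ENSBTAG00000016247, minus strand). This site lies deep in an intron that runs from position 21392582 to 21439652, 14959 bp from its nearer edge. A larger absolute difference was listed for 3.32% of sites, and 146 of the 224 other sites within 1 point of this size (65.2%) had q below 0.05 in the authors' deposited table. A second site of TACR3, outside the rule at 37890 bp beyond the 3′ untranslated region, had q = 0.445 in the authors' deposited table, with a difference of 8.07 points. The 2 listed sites of this gene were therefore both positive, 72840 bp apart, and neither passed q below 0.05.

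GHR, the growth hormone receptor, is of the same receptor family as PRLR and lies on the same chromosome. The authors' deposited table lists its single site at -4.59 points with p = 0.0230 and q = 0.143 (ENSBTAG00000001335, chromosome 20, position 31911632, plus strand). The site is 384 bp inside an intron that runs from position 31900012 to 31912016, close to the edge nearer the start of the gene. Its p was near that of the TACR3 site although the listed difference there was 17.4 points, so size and p did not run in parallel among these sites. Both cytokine-type receptors had a negative difference, at 1 site each.

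FSHR, the follicle stimulating hormone receptor of granulosa and Sertoli cells, had the most listed sites of the 10 genes (ENSBTAG00000032424, chromosome 11). One of its sites was the single coding site of the 13, on the plus strand at position 31256299. It lies in a coding stretch from position 31255876 to 31257109, inside an exon that the authors' annotation ranks as exon 10 of another transcript of the gene. The authors' deposited table lists it at -8.50 points with p = 0.241 and q = 0.416. An intronic site 8975 bp away, at position 31265274, had q = 0.857 in the authors' deposited table, with a difference of 0.13 points. Within this gene the coding site and the intronic site thus differed by their listed values, but no error per value is available to compare them.

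Farther from FSHR 3 more sites named it as their closest gene and fell outside the rule. The authors' deposited table gives 2 sites 8 bp apart and at least 378446 bp upstream, at positions 31828830 and 31828838, differences of -9.78 points (q = 0.379) and -5.46 points (q = 0.212). Both were negative, and the latter had p = 0.0473 in the authors' deposited table. These 2 sites are on the same strand and may be covered by the same reads, so they may not be independent measurements. On the other side of the gene, the site at position 31228291, which is 27362 bp downstream, had q = 0.267 in the authors' deposited table, with a difference of 2.38 points. None of the 5 FSHR sites had q below 0.05.

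Differences at the nuclear receptors ran from -6.67 to 2.81 points over 8 intronic sites. None of these 8 sites differed by 10 points, and 1 had an unadjusted p below 0.05. At 6 of them the difference was negative, at 1 positive and at 1 it was 0. Of the 5 sites in cell-surface receptors, 3 were negative and 2 positive, with 2 beyond 10 points, in PRLR and TACR3. The GHR site (-4.59 points) and the intronic FSHR site (0.13 points) lay within the nuclear receptor range, and the coding FSHR site (-8.50 points) did not. The genes were grouped by receptor type from textbook knowledge, and no test of the difference between the types was made.

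ESRRG, an orphan receptor with roles in energy metabolism, held the nuclear receptor site with the lowest p. The authors' deposited table lists it at -5.56 points with p = 0.00979 and q = 0.0884 (ENSBTAG00000010392, chromosome 16, position 20070742, plus strand). It lies 2409 bp inside an intron of 99212 bp, near the edge closer to the start of the gene. The next listed site of the table is 493215 bp away. ESRRB, its relative with roles in pluripotent cells and placenta, had a site at position 87636682 of chromosome 10 (ENSBTAG00000012285). The authors' deposited table lists that site at 2.81 points with q = 0.464, 9624 bp inside an intron of 128755 bp. These related receptors thus had differences of opposite sign, neither with q below 0.05.

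ESR2, the oestrogen receptor beta of granulosa cells, had 1 site on the minus strand (ENSBTAG00000004498, chromosome 10, position 76429894). The authors' deposited table lists it at -6.67 points with p = 0.239 and q = 0.476, inside an intron from position 76425750 to 76435492. This was the largest absolute difference among the nuclear receptors, with a p above that of the smaller ESRRG difference.

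PGR, the progesterone receptor, is needed for ovulation and for pregnancy. It had 2 sites in 1 intron, 48 bp apart, at positions 7940811 and 7940859 of chromosome 15 (ENSBTAG00000024648). The authors' deposited table lists them at -0.51 points (q = 0.841) and -1.87 points (q = 0.544). Both were negative and small, and sites this close on the same strand may share reads and not be independent measurements.

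NR3C1, the glucocorticoid receptor, also had 2 sites, in separate introns 40584 bp apart (ENSBTAG00000019472, chromosome 7). The authors' deposited table lists the site at position 54367780 at -1.55 points (q = 0.590) and the site at position 54408364 at -1.05 points (q = 0.407). Their values were close to each other and to the median of -1.01 points over all listed sites.

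**Figure D2:**
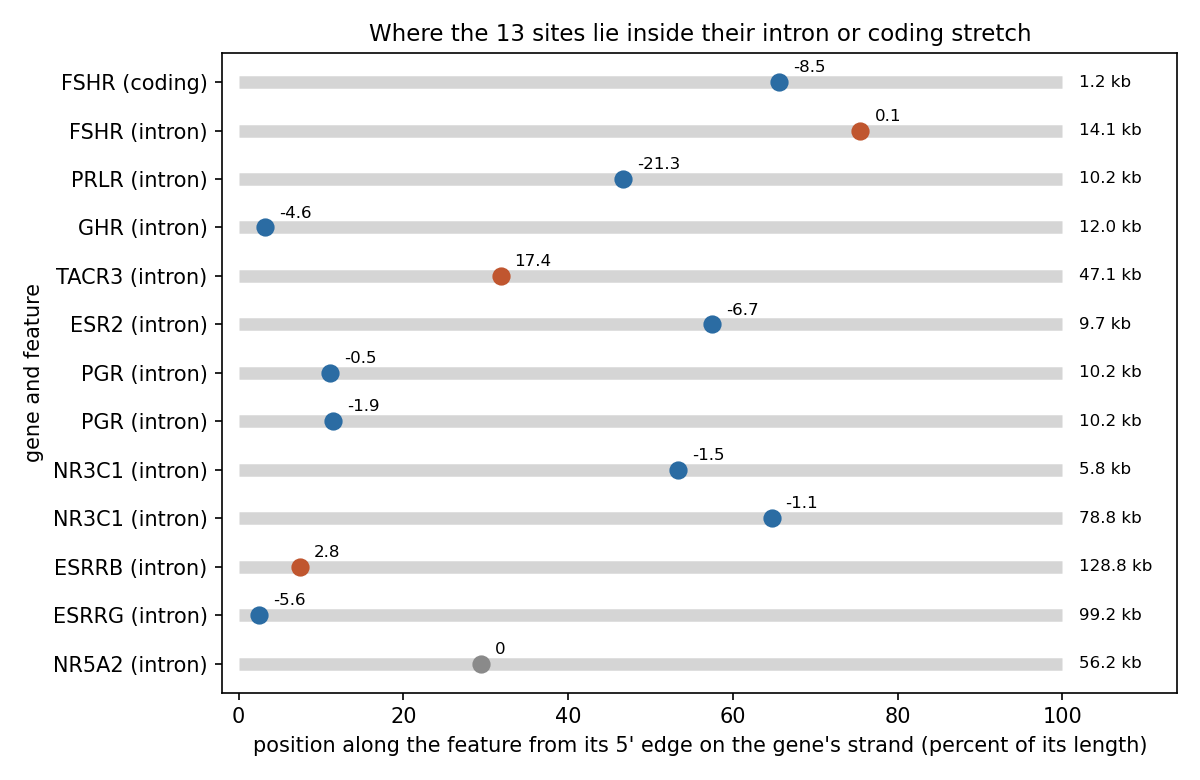
Position of each of the 13 sites along its intron or coding stretch, in percent of the length of that feature from its 5′ edge on the strand of the gene. Each grey bar is 1 feature with its length at the right, blue points are negative, orange points positive and the grey point 0, and the number beside a point is the difference in percentage points. The ESRRG, GHR and ESRRB sites lie at 2.43%, 3.20% and 7.47% of their introns, and the PRLR site at 46.7%.

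NR5A2, a receptor of ovarian cells that also acts early in development, alone among these genes had both tiles and a site. Its site at position 78866121 of chromosome 16 (ENSBTAG00000009265) had a difference of 0 with p = 1 in the authors' deposited table. The 3 tiles lie 23921 bp before it and span positions 78841501 to 78842200, at the border of the 5′ untranslated region and the intron that follows. By the authors' deposited table the tile that starts in the 5′ untranslated region, at position 78841501, stood at 1.06 points (q = 2.96e-08). The tile from position 78841601, 12 bp into the intron, had q = 5.21e-07 in the authors' deposited table, with a difference of 0.85 points. The tile from position 78841701, 112 bp into the intron, had q = 0.000260 in the authors' deposited table, with a difference of 0.59 points. Its unadjusted p there was 0.000301, so this q was not stricter than p.

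All 3 NR5A2 tiles had a positive difference and q below 0.05, while none was called, since none reached 10 points. Called tiles make up 2.78% of those listed. A q below 0.05 at any difference was listed for 71.8% of tiles, and for 15.9% of tiles together with a positive sign. All 3 also had an unadjusted p below 0.05, as did 65.8% of tiles. This share is below the 71.8% for q, so for some tiles q was laxer than p. Neighbouring tiles here share 400 of their 500 bp and all 3 share 300 bp, so they are not independent measurements. Among the 1321 tiles with absolute differences of 0.5 to 1.1 points, 868 (65.7%) had q below 0.05, and among the 1942 sites of that size 1 site did, by the authors' deposited table. No site is listed inside these tiles, so they have no site-level value to be read against. No receptor gene site lay in a listed tile.

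**Figure D3:**
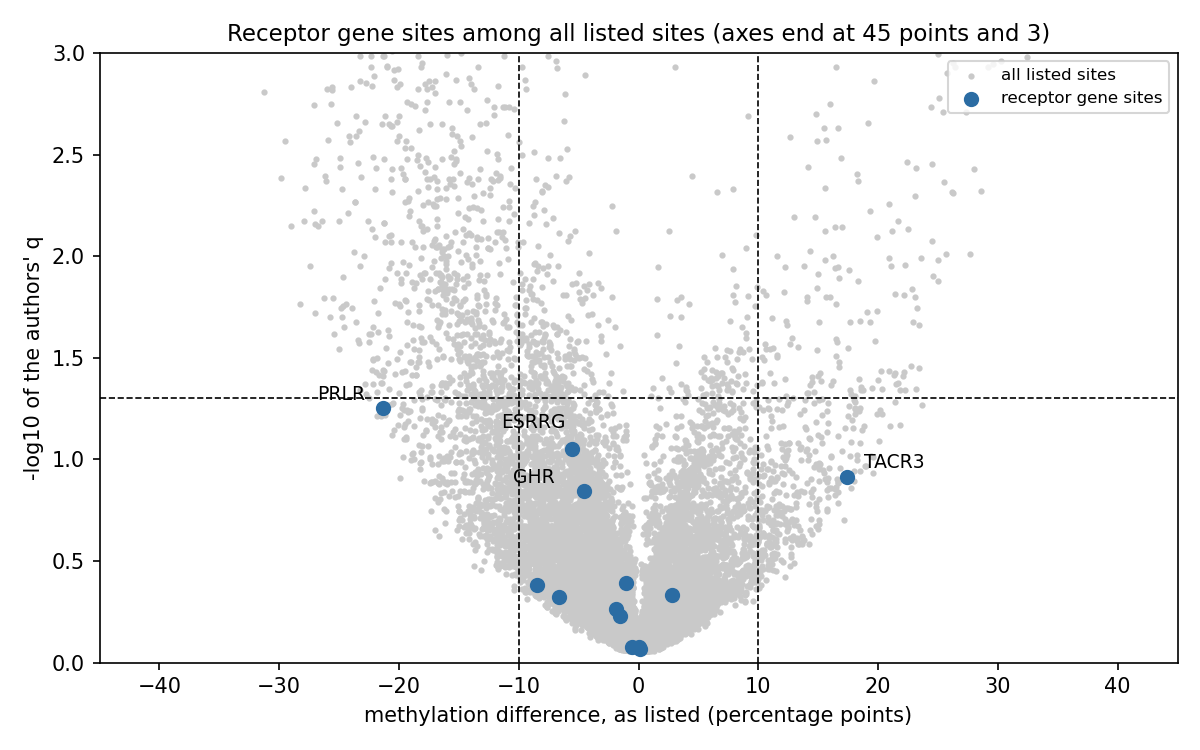
Methylation difference of each listed site, in percentage points as listed, against -log10 of its q in the authors' deposited table, with the 13 receptor gene sites in blue; 235 sites lie outside the plotted area. Dashed lines mark 10 points and q = 0.05, and the PRLR site (q = 0.0558) sits just under the line for q.

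Of the 13 sites 12 lay in an intron and 1 in coding sequence, and none in the authors' promoter class. The rule takes sites inside a feature at any depth and sites outside it up to 10000 bp away, and it found none of the latter kind. Of autosomal sites near any gene 64.2% lay inside a feature, 57.2% in an intron and 17.1% in the promoter class. Among the 10 genes 7 had 1 site, and of the 2361 genes with a near site 67.5% had 1. No site of the 10 genes had a called site within 100000 bp, beside 29.9% of the 4598 other uncalled autosomal sites near a gene. For the 13 sites the distance to the nearest called site ran from 364021 bp, for TACR3, to 17085821 bp, for ESR2. Its median was 5172710 bp, beside 1275704.5 bp for those other sites. Of those other sites 64.4% lay at least as far from a called site as the TACR3 site did. From the 13 sites the nearest listed site of any kind was a median of 72840 bp away, beside 7786 bp for those other sites. Most of the 13 values thus stand alone without a neighbour to compare. These figures are descriptions of 13 sites on 7 chromosomes, without a test.

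The wider hormone axis was described with a list of 73 other genes of releasing hormones, pituitary hormones, further receptors, steroid enzymes and receptor cofactors. Of these, 10 had a listed locus, and 6 had a site within 10000 bp, with 9 sites in all. Of the 9 sites 4 were negative, 4 positive and 1 was 0, with a median of 0 points. Of the 9 sites 1 was called in the authors' deposited table, against 5.94% of all listed sites. The 63 genes without a listed locus include genes that could lie on chromosomes not analysed here, and nothing is said of them.

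That called site belonged to TACR1, the receptor of substance P and a relative of TACR3. The authors' deposited table lists it at 22.1 points with p = 0.00125 and q = 0.0388, in the promoter class 888 bp from an exon (chromosome 11, position 9481887). A second TACR1 site, in an intron, had q = 0.828 in the authors' deposited table, with a difference of 1.63 points. All 4 listed sites of the tachykinin receptors TACR1 and TACR3 were positive, and 1 of them was called, a grouping made after their values were seen. The TACR3 site with 8.07 points is outside the rule of 10000 bp, and the grouping was not tested. Over all listed sites 61.2% of differences other than 0 were negative and 5.94% of sites were called. Next in size within 10000 bp, the authors' deposited table has an intronic site of TSHR, the thyroid stimulating hormone receptor, with -4.76 points (q = 0.365). It is followed in the authors' deposited table by a site 497 bp downstream of OXTR, the oxytocin receptor, with -4.71 points (q = 0.114). The other TSHR site, also intronic, had a difference of 0.22 points in the authors' deposited table (q = 0.875).

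**Figure D4:**
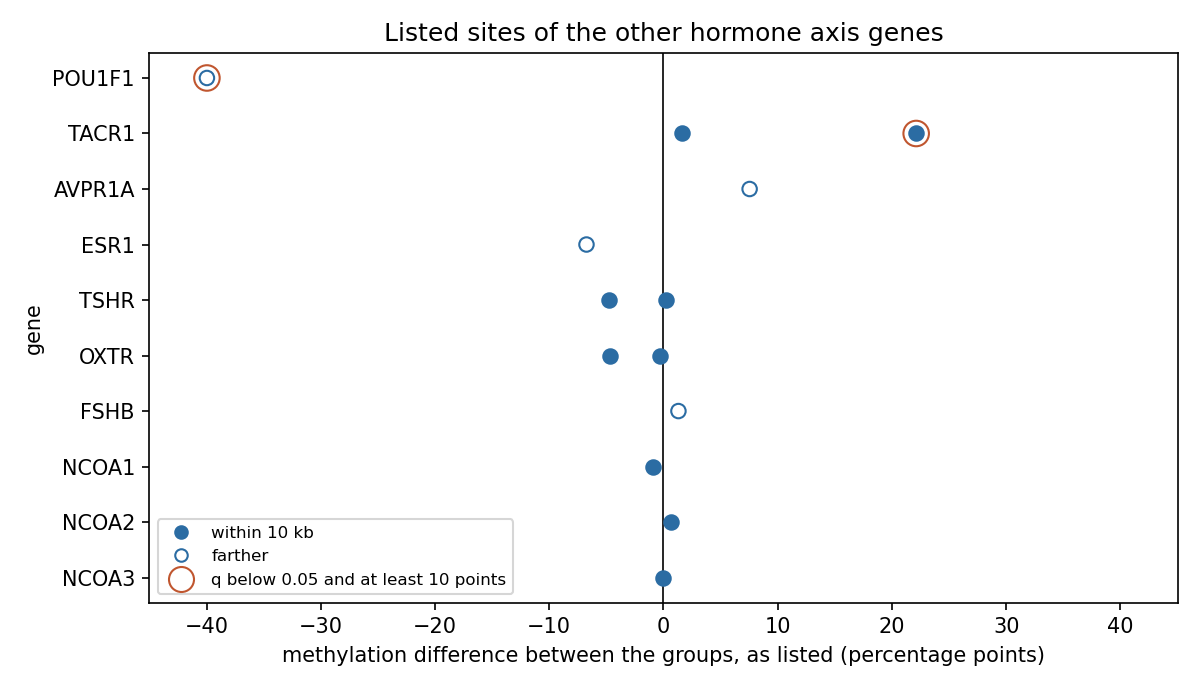
Methylation difference of the 13 listed sites of the 10 other hormone axis genes, in percentage points as listed. Filled circles lie within 10000 bp of the gene, open circles farther away, and orange rings mark the called sites of TACR1 (22.1 points) and POU1F1 (-40.0 points).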

How the data were processed

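Enzymatic methylation sequencing of 12 sperm samples, 6 per group, was compared by the authors. Trimmomatic, Bismark, methylKit and the build ARS-UCD1.2 are named in the submitters' processing notes, and their versions, roles and settings are not given in the sources used here. The deposited values are p-values and q-values, other values in percentage points (the methylation difference) and distances in bp to the closest feature. The deposited distance runs to the nearest edge of that feature even for loci inside it, so loci inside a feature were taken as at the gene. No model was fitted here. Loci were read, matched to genes by identifier and counted with Python 3.11.15, pandas 2.3.3 and scipy 1.17.1, and the counting was tested on simulated data. The 10 symbols are all in the reference gene table (ARS-UCD2.0), used for names only; 1 of them (PGR) is annotated with an NCBI number, which gave the same symbol. The genes, lists and thresholds were chosen with earlier results of these data known. All 10 genes and every listed locus of them are described. Of the 73 other axis genes, matched by full name, those with a called locus within 10000 bp are named, or the 3 with the largest difference where fewer than 3 were called. A gene beyond these 73 was left out and is not reported here. Depth per sample is unknown, so no interval is given. Chromosomes 2, 3, 4, 12, 23 and 27 of the site table, and 12, 23 and 27 of the tile table, were not analysed here. Alternatives for thresholds, distance and counting are in the closing section.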

Additional observations from a re-analysis of the deposited data

How the results depend on the processing

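Over 49 recomputed values, 46 stayed within the limits set for them, though some of these could not have moved. The count of called sites, 0, became 2 with an unadjusted p below 0.05 in place of q (PRLR and TACR3) and 1 with q below 0.1 (PRLR). The count of called tiles, 0, became 3 with no minimum difference (NR5A2). Both counts stayed at 0 under 5, 15 and 20 points, q below 0.01, Benjamini-Hochberg values over all listed loci, and distances of 1000 and 50000 bp. Most of these settings could not add a call, so they say little about robustness. No site of the 10 genes had q below 0.05, and no tile exceeded 1.06 points. All 13 sites lay inside a feature, so the distance of 1000 bp kept the same sites. Requiring the deposited distance of 10000 bp inside features too left 10 sites in 8 genes, without the sites of TACR3 and NR5A2 and 1 of NR3C1, and moved the median difference from -1.55 to -3.23 points. The negative share of sites ranged from 64.3 to 80.0%, and the median of sites with 1 value per gene was -2.74 points. The q below 0.1, the Benjamini-Hochberg values, the setting without a minimum and the 2 further distance settings were chosen after seeing the data. No CpG was listed on both strands, and leaving out NR5A2 leaves no tile. No paired analysis was possible because the tables hold no values per sample. For the same reason no sample was left out in turn and no coverage minimum was tried.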

Other observations

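Sites of the hormone axis that lie beyond 10000 bp of their gene were listed for 4 genes outside the 10 receptors, and 2 of these had q below 0.05, against 8.11% of all listed sites. They were singled out after their values were seen. The largest named POU1F1, the pituitary transcription factor that drives the growth hormone and prolactin genes. It lies 42513 bp from the 5′ untranslated region, and the authors' deposited table lists it at -40.0 points with q = 9.41e-07 (chromosome 1, position 35478142). ESR1, the oestrogen receptor alpha, was the closest gene of a site 62174 bp from its 5′ untranslated region, and the authors' deposited table gives it -6.74 points, which is under 10 points, with q = 0.0419. For AVPR1A, a vasopressin receptor, the authors' deposited table has a site 40872 bp away with 7.54 points (q = 0.216). For FSHB, which encodes the beta subunit of the hormone that FSHR binds, the authors' deposited table has a site 37008 bp away with 1.31 points (q = 0.601). OXTR was the axis gene outside the 10 with a tile, and the authors' deposited table gives this tile, in coding sequence, -1.56 points with q = 0.00380. Its second site, 524 bp downstream, has -0.28 points (q = 0.818) by the authors' deposited table.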
